A study of Mus musculus with 120 samples.

Results

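Silent cells are mouse group 2 innate lymphoid cells (ILC2s) that had been stimulated but showed no secretion of the cytokine under observation when they were recovered. They were compared here between cells watched for IL-5 (IL-5 index) and cells watched for IL-13 (IL-13 index). The source label named 22 silent cells, 11 of each index, among the 120 single-cell libraries of the series. Of these, 1 IL-5 index cell, replicate 7, held fewer than 10000 reads in genes and was dropped, which left 10 IL-5 index and 11 IL-13 index cells, 21 in all. All cells came from the mesenteric fat of 20 pooled wildtype C57BL/6 mice, were sorted as lineage-negative c-Kit+Sca-1+ cells and, per the study's methods, were kept for months in culture with IL-2 before use. The mice were mostly retired female breeders, and no age is given. Silent cells of both indexes received IL-2 and IL-33, and pre-stimulation cells, 5 of each index, received no stimulus. Activated cells, which were stimulated in the same way and did secrete the index cytokine, are used below as a further reference. Their ratios are printed for some genes only, and no difference below is called particular to silent cells. Each library was 1 cell, with no mouse or culture given for it, so each group counts as 1 sample, no test was made, and all intervals cover counting error only. The titles carry 2 dates for each index, and none of the 4 dates is shared by the indexes. Index and date therefore cannot be told apart in any value below. Pre-stimulation cells lie on the first dates only.

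ILC2s are tissue lymphocytes that carry no antigen receptor and answer to alarmins such as IL-33, released from damaged tissue, together with IL-2 family cytokines. Their receptors lead through NF-kB, AP-1 and STAT5 to the genes of IL-5, which sustains eosinophils, and of IL-13, which acts on epithelium, mucus and smooth muscle. The 2 genes and Il4 share a cytokine cluster on chromosome 11. A cell silent for one cytokine was not imaged for the other, so its secretion of the other is not known.

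The promoters of both index genes are shown as context for the comparison of their transcripts, 250 bases before to 50 after the start in RefSeq (GRCm38.p6). Capitals mark the motif AGATAA, known from transcription factors such as Gata3 and searched on both strands. The Il13 window (chr11:53634653-53634952, minus strand) held 1 match and the Il5 window (chr11:53720544-53720843, plus strand) held 0. The AP-1-type motif TGANTCA was found in neither. Among 27025 promoters of this length, 11.4% held AGATAA and 7.93% held TGANTCA. Other forms of the motifs were not searched, so 0 matches does not show that a window lacks sites of such factors. A match is a description of letters only.
Il13: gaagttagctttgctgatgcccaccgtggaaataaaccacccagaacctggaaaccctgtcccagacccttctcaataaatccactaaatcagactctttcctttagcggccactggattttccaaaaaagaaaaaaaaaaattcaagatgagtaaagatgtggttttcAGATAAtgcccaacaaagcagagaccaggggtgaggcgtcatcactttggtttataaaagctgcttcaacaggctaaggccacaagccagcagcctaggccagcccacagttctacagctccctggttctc
Il5: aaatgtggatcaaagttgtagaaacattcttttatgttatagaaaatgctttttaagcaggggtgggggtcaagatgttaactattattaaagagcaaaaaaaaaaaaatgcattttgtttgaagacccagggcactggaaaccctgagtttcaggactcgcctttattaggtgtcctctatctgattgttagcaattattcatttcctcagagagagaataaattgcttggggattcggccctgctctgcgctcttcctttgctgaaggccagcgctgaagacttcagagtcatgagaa

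On the first dates every IL-5 index silent cell was deeper, at 270104 to 358978 gene reads against 139108 to 225037 in the IL-13 index. On the second dates the ranges overlapped, at 175331 to 404712 and 235502 to 321551. Counts of cells with a read, here and below, were not brought to equal depth. The IL-5 index silent cells held 175331 to 404712 gene reads with a median of 314614, and the IL-13 index silent cells 139108 to 321551 with a median of 235502. With every cell thinned to 100000 reads, the median cell had 2616 genes (1859 to 3500) in the IL-5 index and 2362 (1962 to 2787) in the IL-13 index. By date the medians were 2440 and 2792 in the IL-5 index and 2746 and 2201 in the IL-13 index, so neither index was higher on both dates. Among the pre-stimulation cells 1 stood apart, replicate 1 of the IL-13 index, with 3921 genes at 100000 reads against 1422 to 2299 in the other four of its index and 1856 to 2503 in the IL-5 index. All 10 ILC2 markers had reads in silent cells. Gata3, the transcription factor that defines ILC2s, was read in 10 of 10 and 11 of 11 cells, at 581 and 690 CPM in the IL-5 and the IL-13 index. Its cell medians lay the other way, at 501.5 and 158 CPM, with 1 IL-13 index cell at 3456 CPM and the highest IL-5 index cell at 1176 CPM. CPM is a gene's read total in a group per 1000000 reads in genes of that group.

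Markers of macrophages, mast cells, NK cells, stromal cells and adipocytes had 0 reads in every silent cell. Of the 5 B cell markers only Ighm was read, in 3 IL-5 index cells (51.6 CPM). T cell genes were partly present, as 5 of 9 markers had reads and Trac, Cd4, Cd8a and Cd5 had 0. The summed level of the T cell list ran from 3.35 to 1677 CPM over IL-5 index cells and from 0 to 4018 CPM over IL-13 index cells. Trbc2 stood at 559 and 539 CPM in the IL-5 and IL-13 index. Of the measured markers, 1 of 10 ILC2 and 1 of 2 T cell markers differed past 4-fold between the indexes, beside 18.4% of all measured genes. Thy1, a surface protein of lymphocytes and an ILC2 marker, stood at 20.6 and 522 CPM, with a log2 ratio of -4.67 (-5.05 to -4.30), and was read in 3 of 10 and 8 of 11 cells. The IL-13 index cells had a median of 3.82 CPM, and 1 of them, replicate 8 at 3724 CPM, held 63.5% of the reads. Over the date pairings the ratio of Thy1 ran from -0.26 to -8.54, and without that cell it was -3.35. Cd3g, a subunit of the CD3 complex, stood at 28.4 and 505 CPM, with a log2 ratio of -4.15 (-4.48 to -3.84), and was read in 2 of 10 and 5 of 11 cells, with -1.23 to -9.20 over the date pairings. Among pre-stimulation cells the log2 ratios of Thy1 and Cd3g were -0.37 and 0.08. The part of these cells in other differences was not tested.

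Among silent cells Il13 was read mostly in those watched for IL-5, whereas Il5 was read in most silent cells of both indexes. The IL-13 index cells were chosen for showing no IL-13 secretion, and the IL-5 index cells were not chosen on IL-13. Il13 (ENSMUSG00000020383, on the minus strand of chromosome 11 from 53631324 to 53634702, build GRCm38 here and below) was present in most IL-5 index cells and in 1 of 11 IL-13 index cells. In the first 5 IL-5 index cells its level was 81.7, 2.79, 955, 0 and 652 CPM, and in replicates 6 and 8 to 11, all from the second date, 5162, 381, 83.5, 0 and 1040.0 CPM. Thus 8 of 10 cells held Il13 and 5 held at least 100 CPM, on both dates. Among the 11 IL-13 index silent cells, replicate 1 held 11 reads (58.5 CPM) and the 10 others held 0. Only replicate 1 thus overlapped the range of the cells of the IL-5 index that held the gene. The summed levels were 626 CPM (598 to 654) and 4.16 CPM (2.07 to 7.44), a log2 ratio of 7.23 (6.39 to 8.24). Every log2 ratio here is IL-5 index over IL-13 index with a 95% Clopper-Pearson interval of the split of reads. Without the IL-5 index replicate 6, which held 47.2% of the reads, it was 6.40, and without the IL-13 index replicate 1 it was 9.00. Between the first dates it was 4.74 and between the second dates 9.12. Pre-stimulation cells held 0 reads in the IL-5 index and 1 in the IL-13 index, and activated cells stood at 991 and 1231 CPM, with a log2 ratio of -0.31 (-0.38 to -0.25).

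Il5 (ENSMUSG00000036117, chromosome 11, 53720794 to 53725106, plus strand) was read in most silent cells of both indexes. In the IL-5 index the cells stood at 63.5, 2.79, 389, 63.6 and 195 CPM on the first date and at 6576, 37.1, 29.8, 352 and 0 CPM on the second. In the IL-13 index the lowest cell was at 0, the median at 66.5 and the highest at 805 CPM. The groups overlapped almost fully, with medians of 63.6 and 66.5 CPM, and 1 IL-5 index cell, replicate 6, held 78.1% of the reads of its group. This cell was also the highest in Il13, and its label is silent for IL-5. The summed log2 ratio of 1.24 (1.10 to 1.38) became -0.87 without it, so no direction is drawn for Il5. Before stimulation Il5 had 0 reads in the IL-5 index and 23 in the IL-13 index, all in 1 cell. Il4, the third cytokine of the cluster, was held by 5 of 10 and 2 of 11 silent cells, at 99.9 and 35.9 CPM. Its log2 ratio of 1.48 ran from -0.80 to 2.93 over the date pairings and from 0.65 to 3.54, past 4-fold, on leaving out 1 cell (IL-5 index replicate 5 and IL-13 index replicate 10), so no direction is drawn for Il4. Among pre-stimulation cells it stood at 133 and 0 CPM.

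**Figure D1:**
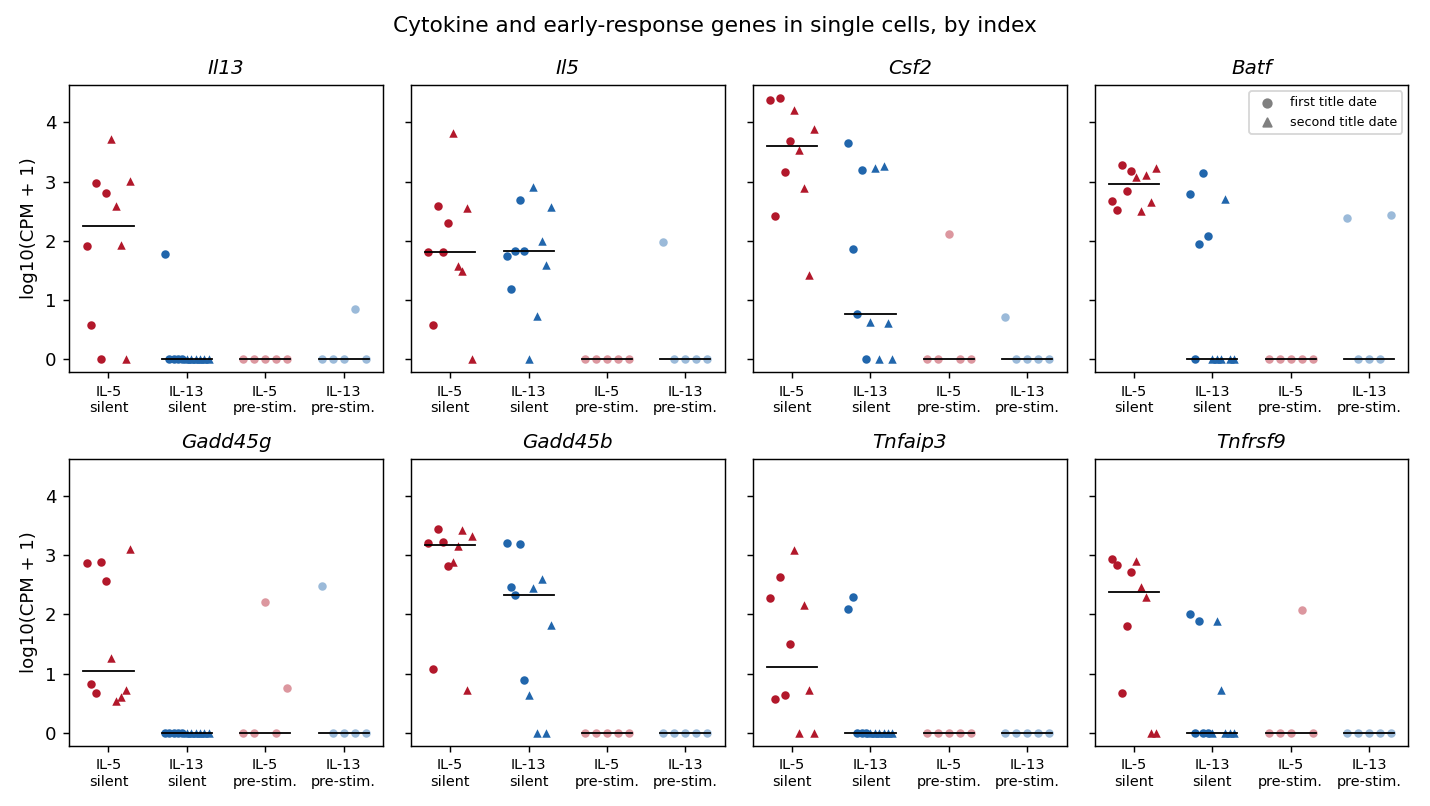
Level of 8 genes in every silent and pre-stimulation cell, as log10(CPM + 1) on the vertical axis, by index and state. Circles are cells of the first title date, triangles of the second, and bars are medians. Il13 lay at 0 in 10 of 11 IL-13 index silent cells, while Il5 overlapped between the indexes.

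Csf2, which encodes GM-CSF, was the most abundant cytokine transcript to differ. The IL-5 index cells ranged from 25.8 to 25975 CPM with a median of 4077, and the IL-13 index cells from 0 to 4561 with a median of 4.75. At least 1000 CPM was held by 7 of 10 and 4 of 11 cells, so the groups overlapped. The IL-13 index cells at that level were replicates 1, 4, 7 and 9. The log2 ratio was 3.16 (3.10 to 3.23), with 1.81 to 4.08 over the 4 pairings of an IL-5 index date with an IL-13 index date, 2.75 without the IL-5 index replicate 1 and 3.73 without the IL-13 index replicate 1. Activated cells had a log2 ratio of -0.12. Among pre-stimulation cells the log2 ratio of 3.17 was of the same size, but it came from 34 reads in 1 cell against 1 read, at 28.0 and 1.04 CPM.

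Across genes, 3247 were measured in silent cells, which required 50 CPM in the higher group and a read in more than 4 cells. Past 4-fold were 265 genes (8.16%) higher in the IL-5 index and 334 (10.3%) higher in the IL-13 index, 18.4% in all. The larger number for the IL-13 index turned without its replicate 6, to 293 and 253. Differences of this size were also seen within an index and without stimulation. Between the 2 dates within an index, 13.4% (IL-5 index) and 15.8% (IL-13 index) of measured genes passed 4-fold in silent cells, and between the indexes the 4 date pairings gave 11.7%, 14.3%, 14.7% and 17.6%. Pre-stimulation cells, 5 against 5, gave 16.7% of 1662 genes (17.3% of 1344 without the IL-13 index replicate 1), with 11.5% higher in the IL-5 index and 5.23% higher in the IL-13 index, and activated cells, 11 against 11, gave 9.74% of 2895. Cells of 1 date set against cells of another thus gave shares of one range, within an index and between the indexes. Past 4-fold and past 2-fold the same way in all 4 date pairings were 132 genes (4.07%) higher in the IL-5 index and 146 (4.5%) higher in the IL-13 index.

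**Figure D2:**
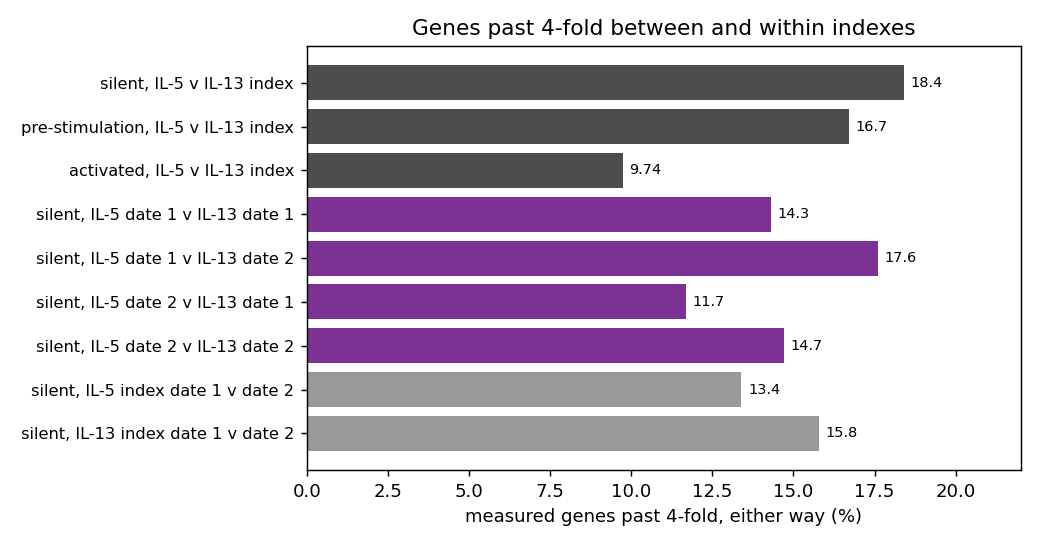
Share of measured genes past 4-fold in either direction (percent, horizontal axis) for each comparison. Black to dark grey bars (the upper 3) compare the indexes within a state, purple bars compare a date of one index with a date of the other among silent cells, and light grey bars compare the 2 dates of 1 index. The light grey bars, 13.4% and 15.8%, lie within the range of the purple bars, 11.7% to 17.6%.

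The difference among silent cells was then read beside that among pre-stimulation cells. Across 2976 genes with a value in both, the log2 ratios had a Pearson r of -0.038 and a Spearman rho of -0.042, and over 1432 genes measured in both an r of -0.097. Genes are not independent replicates and the libraries are shared by all points, so these are descriptions. Of the 265 genes higher in the IL-5 index, 71 had a pre-stimulation ratio past 2-fold the same way, 79 past 2-fold the other way, 59 (22.3%) within 2-fold, and 56 (21.1%) had under 3 reads in both pre-stimulation groups. Of the 334 genes higher in the IL-13 index the numbers were 93, 109, 77 (23.1%) and 55 (16.5%). Without the IL-13 index pre-stimulation replicate 1 the 265 genes fell into 86, 61, 45 and 73 and the 334 genes into 73, 118, 67 and 76, so the split between the same and the other direction depended on that cell. The correlation over all genes was then -0.017, and of all measured genes 26.3%, 28.4%, 32.4% and 12.9% fell into these classes. With all cells, 25.7% of measured genes had the same and 27.9% the other direction, while 38.1% were within 2-fold and 8.35% had under 3 reads in both. These shares were not tested against each other. The silent ratios of the first dates and of the second dates had an r of 0.111 over 1516 genes, and the silent and activated ratios an r of 0.018 over 3219.

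**Figure D3:**
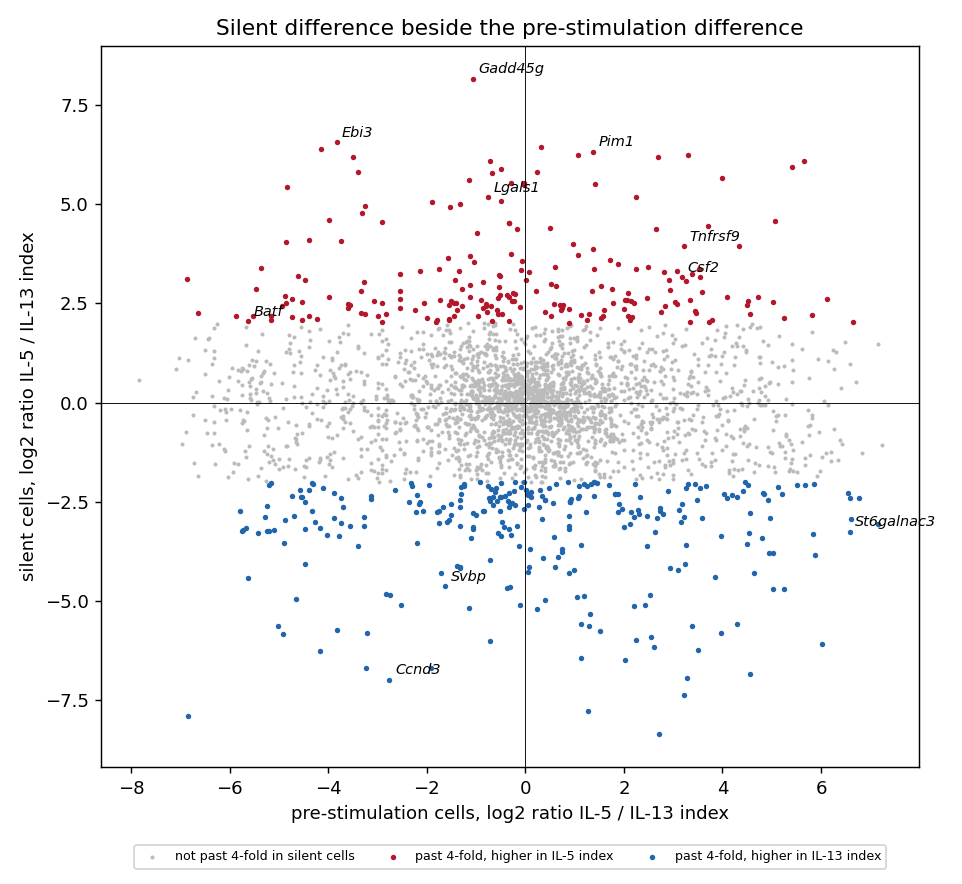
Log2 ratio of IL-5 over IL-13 index in silent cells (vertical axis) against the same ratio in pre-stimulation cells (horizontal axis). Each point is a gene with a value in both, red and blue where it passed 4-fold in silent cells. Red and blue points spread over both sides of 0 on the horizontal axis, with r of -0.038 over all 2976 genes.

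A stricter rule took genes past 4-fold that also held over the 4 date pairings, by the mean of the cells' own CPM, and in at least 70% of the cells of the higher group (7 of 10 or 8 of 11). It left 45 genes (1.39%) higher in the IL-5 index and 9 (0.277%) higher in the IL-13 index. With at least 10 reads needed for a cell to hold a gene, 21 and 3 were left, an alternative added after the data were seen. Without the IL-5 index replicate 4 or 5 the first number was 29. Leaving out a single cell of the IL-13 index gave 15 to 21 for the second, as only 7 cells were then needed. From these genes the 12 of the IL-5 index and the 8 nameable ones of the IL-13 index that kept the largest ratio on leaving out any 1 cell are shown in the plot of leading genes. They were selected for this difference, so their separation is a description.

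**Figure D4:**
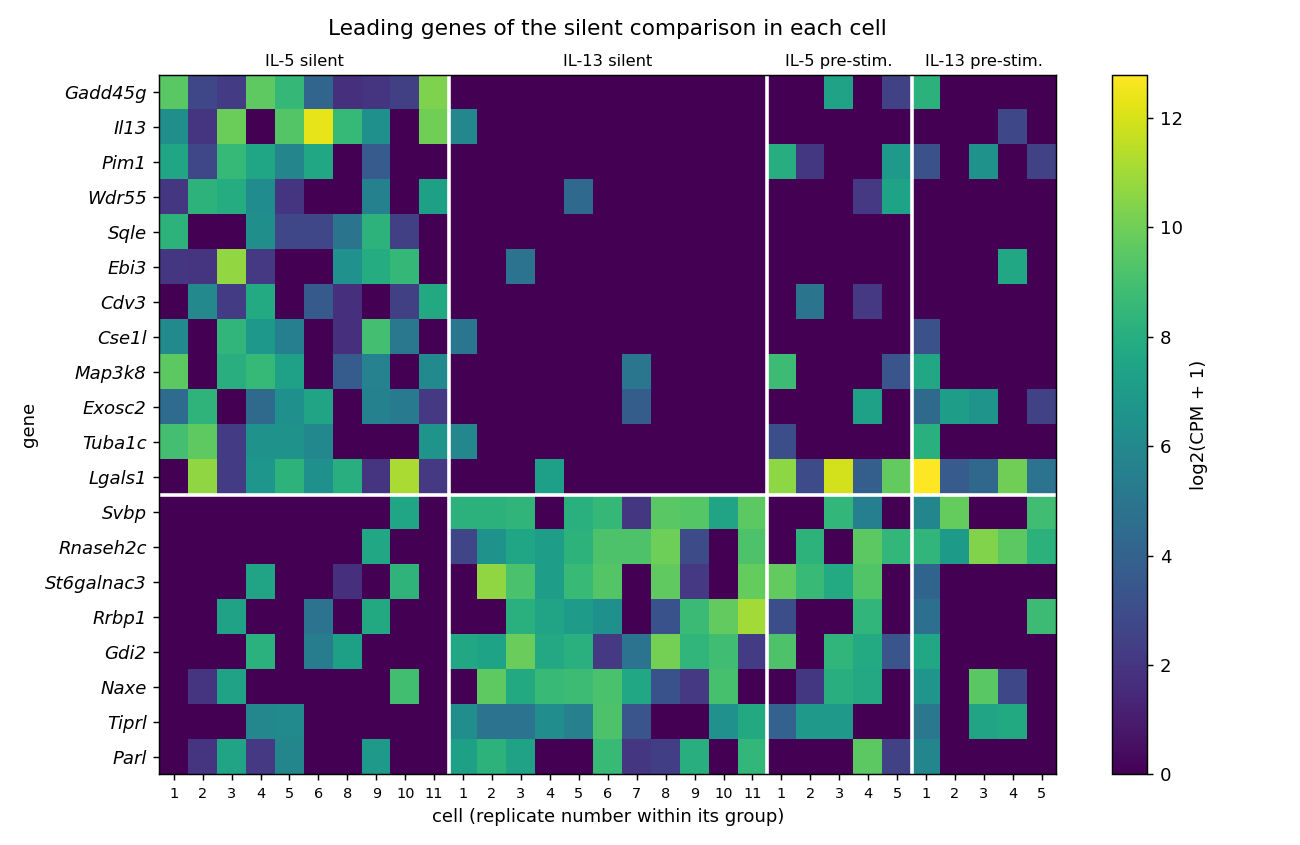
Level of the 12 and 8 leading genes (rows) in each silent and pre-stimulation cell (columns), as log2(CPM + 1) in colour. IL-5 index silent cells hold a read of 7 to 11 of the upper 12 genes and IL-13 index silent cells of 0 to 3. Of the lower 8 genes they hold 0 to 4 and 5 to 8.

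Gadd45g, a stress-inducible activator of MAP kinase signalling, led the genes higher in the IL-5 index (ENSMUSG00000021453, chromosome 13, 51846678 to 51848468, plus strand). It had 995 reads (325 CPM) in the IL-5 index silent cells and 0 in the IL-13 index ones. With the latter set at 3 reads over the group it was 287-fold higher in the IL-5 index. The log2 ratio was 7.63 to 8.37 on leaving out any 1 cell. The first-date cells stood at 741, 5.57, 3.70, 780.3 and 368 CPM and the second-date cells at 17.1, 2.47, 2.98, 4.29 and 1261 CPM. Thus 4 cells held at least 100 CPM and the other six held 1 to 3 reads each. It was the only measured gene whose cells did not overlap between the indexes (0.0308% of genes), and the cells that closed the gap to 0 were those with 1 to 3 reads. Before stimulation Gadd45g had 44 reads in the IL-5 index and 73 in the IL-13 index, a log2 ratio of -1.06, which was 3.12 without the 1 IL-13 index cell that held it. Low values of this kind were frequent. Of the 120 values of the 12 leading genes in IL-5 index cells, 26 were 1 to 3 reads, and in all 26 another silent cell of the same date held at least 30 reads of that gene. Of the 88 values of the 8 genes in IL-13 index cells the numbers were 12 and 12. Sets of 5 or 6 libraries were tagmented as a pool, and the part of pooling in the low values was not tested.

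Pim1, Map3k8 and Ebi3 were also among the leading genes of the IL-5 index. Pim1, a kinase induced by STAT5, was read in 7 of 10 cells, of which 5 held at least 10 reads, and had 0 reads in the IL-13 index. With that group set at 3 reads Pim1 was 80.4-fold higher in the IL-5 index. The log2 ratio was 5.80 to 6.53 on leaving out any 1 cell. Before stimulation Pim1 had a log2 ratio of 1.38 (59 and 18 reads). Map3k8, the Tpl2 kinase upstream of ERK, stood at 174 and 3.78 CPM, with a log2 ratio of 5.53 (4.64 to 6.60) and of -0.03 before stimulation, which was 3.54 or -4.16 without 1 cell. The silent ratio of Map3k8 was 4.77 to 7.08 on leaving out any 1 silent cell. Ebi3, a subunit of IL-27 and IL-35, stood at 215 and 2.27 CPM, with 68.8% of its reads in 1 cell, replicate 3. Its log2 ratio of 6.57 was 5.02 without that cell. Before stimulation the ratio of Ebi3 was -3.83, the other direction, from 0 reads in the IL-5 index and 34 in 1 cell of the IL-13 index.

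Sqle, the squalene epoxidase of cholesterol synthesis, had 0 reads in IL-13 index silent cells and 0 before stimulation in both indexes. With IL-13 index silent cells set at 3 reads it was 70.0-fold higher in the IL-5 index. The log2 ratio of Sqle was 5.50 to 6.31 on leaving out any 1 cell. Tuba1c, an alpha-tubulin, had a log2 ratio of 5.42 in silent cells and of -4.83 before stimulation, where its 68 reads of the IL-13 index lay in 1 cell. The silent ratio of Tuba1c was 4.58 to 7.19 on leaving out any 1 silent cell. Lgals1, which encodes galectin-1, stood at 450.5 and 12.5 CPM in silent cells and at 1179 and 1996 CPM before stimulation, where 5 of 5 cells of each index held it. The highest of these, replicate 1 of the IL-13 index, stood at 7078 CPM, the group medians were 840 and 27.8 CPM, and only 3 and 2 of 5 cells held at least 10 reads. The pre-stimulation log2 ratio of Lgals1 was thus -0.76, and 2.21 without that cell. Among IL-13 index silent cells 1 of 11 held Lgals1. Cse1l, a nuclear export factor, Exosc2, a subunit of the RNA exosome, and Wdr55 had log2 ratios of 5.61, 5.53 and 6.24. Cdv3 had 0 reads in the IL-13 index and, with that group set at 3 reads, was 45.8-fold higher in the IL-5 index. The log2 ratio of Cdv3 was 4.88 to 5.71 on leaving out any 1 cell. Before stimulation Wdr55 and Cdv3 were past 2-fold the same way, at 3.29 (37 and 0 reads) and 1.41 (10 and 0 reads), and Exosc2 was at -0.30, while Cse1l had 0 and 2 reads. The cells holding these genes differed from gene to gene, as the plot of leading genes shows.

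Genes higher in the IL-13 index were led by Svbp, the small vasohibin-binding protein (ENSMUSG00000028643, chromosome 4, 119195306 to 119201298, plus strand). It was read in 10 of 11 IL-13 index cells, from 0 to 768 CPM with a median of 302, and in 1 of 10 IL-5 index cells, replicate 10, at 189 CPM. The log2 ratio was -4.64 (-5.11 to -4.20), and -8.40 without that cell, which thus set its size. Rnaseh2c, a subunit of ribonuclease H2, had a log2 ratio of -3.96 (-4.34 to -3.60) and was read in 10 of 11 against 1 of 10 cells. Here too 1 cell set the size, as it was -8.27 without the IL-5 index replicate 9. Before stimulation Svbp and Rnaseh2c had log2 ratios of -1.63 and -0.72.

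Gdi2, an inhibitor that recycles Rab GTPases, was the only one of the 8 to be read in all 11 IL-13 index cells, with 3 of 10 in the IL-5 index. Its log2 ratio was -2.69 in silent and 1.97 in pre-stimulation cells. St6galnac3, a sialyltransferase, turned most between the states among these 8 genes, with -3.26 (-3.53 to -2.99) in silent and 6.59 in pre-stimulation cells, where it stood at 398 and 4.15 CPM. Parl, a protease of the mitochondrial inner membrane, had -2.09 and 3.66, but the latter was -2.15 without the IL-5 index replicate 4. Rrbp1, a ribosome-binding protein of the endoplasmic reticulum, Naxe, a metabolite repair enzyme, and Tiprl had silent log2 ratios of -3.34, -2.39 and -3.13 and pre-stimulation ones between -0.50 and -0.29. On leaving out any 1 silent cell their silent ratios ran from -4.50 to -2.48, -4.05 to -2.18 and -4.17 to -2.08. For Gdi2 and St6galnac3 the difference before stimulation was thus past 2-fold the other way, also on leaving out any 1 pre-stimulation cell. Of the 20 leading genes 17 had a pre-stimulation ratio, and for 8 of these it changed sign on leaving out 1 of the 10 cells, an alternative added after the data were seen. The IL-13 index pre-stimulation replicate 1 held reads of 7 of the 12 and of all 8 leading genes, and the other four cells of its index of 2 to 3 of each set.

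Gene lists were described by how many measured members passed 4-fold, beside 8.16% and 10.3% of all measured genes, whose median log2 ratio was -0.02 (0.02 before stimulation). Pre-stimulation medians cover the members with a value there, which in some lists were fewer than those measured in silent cells. Medians of lists this short moved with single cells. Of the 43 measured genes named under 4-fold, 21 passed it on leaving out 1 silent cell. Among immediate early genes, the AP-1, Egr and Nr4a families and others first transcribed after a signal, 3 of 10 measured genes were higher in the IL-5 index and 0 in the IL-13 index, with a median of 1.57. This median was 0.72 without the IL-5 index replicate 8 and 1.87 without the IL-13 index replicate 7, and 0.30 before stimulation. The third member past 4-fold beside Gadd45g and Batf was Rrad, a small GTPase, whose log2 ratio of 2.22 was 0.29 without the IL-5 index replicate 8 and -0.78 between the first dates. Batf (ENSMUSG00000034266, chromosome 12, 85686669 to 85709087, plus strand), an AP-1 factor, was held by all 10 IL-5 index cells at 319 to 1877 CPM, with a median of 945. In the IL-13 index 5 of 11 cells held it, replicates 1, 3, 4, 5 and 9, at 617, 85.5, 1386, 119.6 and 499 CPM. The lowest IL-5 index cell thus lay above 8 of the 11 IL-13 index cells. The log2 ratio of Batf was 2.04 (1.92 to 2.17), 0.90 to 3.50 over the date pairings, and 1.86 without the IL-13 index replicate 10. Before stimulation Batf had 0 and 118 reads, the other direction. Gadd45b, a relative of Gadd45g, was read in 10 of 10 and 9 of 11 cells, with medians of 1524 and 209 CPM. Its log2 ratio of 1.95 (1.85 to 2.06) lay just under 4-fold, was 1.77 to 2.47 on leaving out 1 cell and 0.66 to 3.58 over the date pairings, and it had 0 reads before stimulation.

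**Figure D5:**
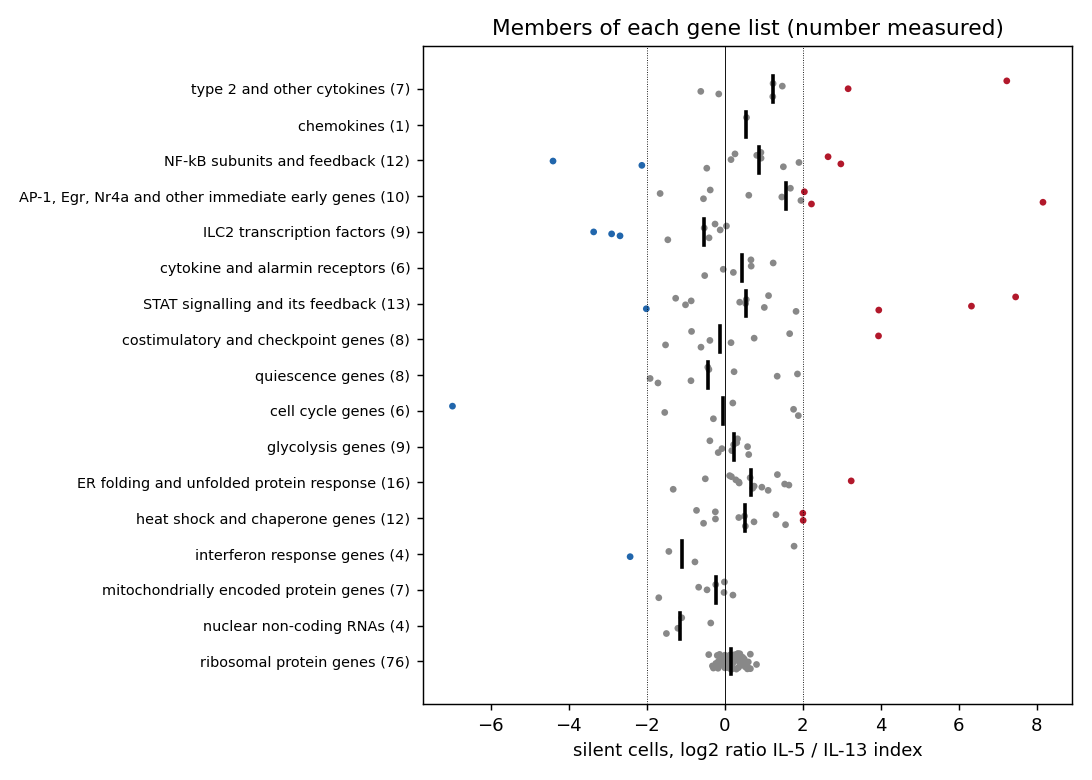
Log2 ratio of IL-5 over IL-13 index in silent cells for each measured member of each list, with the number measured in parentheses. Black ticks are medians, dotted lines mark 4-fold, and red and blue points lie past it. Medians ran from -1.15 (nuclear non-coding RNAs) to 1.57 (immediate early genes), and 76 ribosomal protein genes lay within 4-fold.

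In the list of NF-kB subunits and their feedback inhibitors, 2 of 12 measured genes were higher in the IL-5 index, 2 were higher in the IL-13 index, and the median was 0.87, or 0.58 without the IL-5 index replicate 1. Tnfaip3, which encodes the inhibitor A20, was held by 8 of 10 and 2 of 11 cells at a log2 ratio of 2.98 (2.55 to 3.43), with 1.10 to 6.73 over the date pairings. Both IL-13 index cells with Tnfaip3 were of the first date. Relb, an NF-kB subunit, had 2.65, and 1.59 without the IL-5 index replicate 2. On the other side Nfkbie, an inhibitor of the IkB family, had -4.40 (-5.49 to -3.49), but -0.66 to -5.75 over the date pairings, and Tnip1, a partner of A20, had -2.13, which became 0.07 without the IL-13 index replicate 6. Tnfaip3, Relb, Nfkbie and Tnip1 had 0 reads in pre-stimulation cells. The 6 members of the list with a pre-stimulation value had a median of 3.56 there. They do not include the genes past 4-fold in silent cells, so the medians of the 6 and the 12 are of different sets.

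Of 13 measured genes of STAT signalling and its feedback, 3 were higher in the IL-5 index and 1 in the IL-13 index, with a median of 0.55, which was 0.94 without the IL-13 index replicate 8 and 0.60 before stimulation (0.29 without the IL-13 index replicate 1). Pim1 was described above. Stat5a, which transmits IL-2 signals, had 612 reads in 4 IL-5 index cells and 1 read in the IL-13 index. With that group set at 3 reads the log2 ratio was 7.46 (6.72 to 7.67 on leaving out any 1 cell), and from the 1 read itself it was 9.05 (6.56 to 14.35). In activated cells that of Stat5a was 0.01. Bcl2l1, which encodes the survival protein BCL-XL, had 3.95 (3.30 to 4.68), with 2.67 to 6.58 on leaving out any 1 cell, and was held by 4 and 1 cells. Its relative Bcl2 went the other way at -2.01, with 272 and 1096 CPM, and was -1.35 without the IL-13 index replicate 8.

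Among costimulatory and checkpoint genes, 1 of 8 measured was higher in the IL-5 index and 0 in the IL-13 index, with a median of -0.11, which was 0.54 without the IL-13 index replicate 1, and of -0.18 before stimulation (0.24 without the pre-stimulation replicate 1 of the IL-13 index). The gene was Tnfrsf9, the receptor 4-1BB, which 8 of 10 cells held with a median of 241 CPM and 4 of 11 with a highest level of 101 CPM. Its log2 ratio was 3.94 (3.57 to 4.34), 2.53 to 5.00 over the date pairings and 3.66 to 4.50 on leaving out any 1 cell. Before stimulation 1 cell of the IL-5 index held 35 reads of Tnfrsf9 and none of the IL-13 index did, and in activated cells the log2 ratio was 0.91. None of the 6 measured cytokine and alarmin receptor genes passed 4-fold with all cells. Il2ra, the IL-2 receptor alpha chain, had the largest ratio at 1.24 (1.13 to 1.35), which was 2.09 without the IL-13 index replicate 7, and was held by 10 of 10 and 7 of 11 cells. Before stimulation its ratio was -0.93. Il1rl1, the IL-33 receptor, had 0.67, with cell medians of 427 and 482 CPM. This became -0.12 without the IL-5 index replicate 11 and ran from -1.27 to 1.60 over the date pairings, so no direction is drawn for Il1rl1. Before stimulation its ratio was 0.82.

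ILC2 transcription factors lay on the other side, with 0 of 9 measured higher in the IL-5 index, 3 higher in the IL-13 index and a median of -0.53. This median was -1.81 without the IL-5 index replicate 1 and -0.37 without replicate 9, and 0.87 before stimulation. The 3 were Ets1 at -3.36 (-3.74 to -3.00), Tox at -2.90 (-3.39 to -2.44) and Runx1 at -2.69, which was -1.67 without the IL-13 index replicate 9. They were held by 6, 4 and 3 of the 11 IL-13 index cells, and by 2 to 3 of the 10 IL-5 index cells. Before stimulation the ratios of Ets1 and Tox were -0.50 and 2.67. Of the cell cycle genes, 1 of 6 passed 4-fold. Ccnd3, cyclin D3, had 3 reads in the IL-5 index against 328, a log2 ratio of -6.98 (-9.27 to -5.42), and was also lower in the IL-5 index in activated cells (-6.06). Before stimulation its ratio of -2.76 rested on 1 and 2 of 5 cells, and was -0.70 without the IL-13 index replicate 1.

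Endoplasmic reticulum folding genes had 14 of 16 measured members above 0, beside 1601 of 3247 among all measured genes. Their median was 0.68, and 1 passed 4-fold. Before stimulation the median was 0.58 (0.97 without the IL-13 index replicate 1), of the same direction. The gene past 4-fold was Sdf2l1, at 3.24 (2.68 to 3.86) in silent and 3.38 in pre-stimulation cells. On leaving out 1 cell of the state its ratios ran from 2.87 to 6.39 and from 2.49 to 4.83. Hspa5, the chaperone BiP, had 1.35 (1.24 to 1.46), 0.94 to 1.64 over the date pairings and -2.07 before stimulation. Among 12 heat shock and chaperone genes, 2 were higher in the IL-5 index and the median was 0.52, or 0.34 without the IL-5 index replicate 2. Before stimulation it was 0.97, or 0.64 without the IL-13 index replicate 1. The 2 genes were Dnajb1 and Hspa9, at 2.01 and 2.00, and both were under 4-fold on leaving out 1 cell, at 1.58 without the IL-5 index replicate 9 and 1.63 without replicate 4.

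Of 4 measured interferon response genes 1 was past 4-fold, Irf3 at -2.43, which became 0.11 without the IL-13 index replicate 6. The lists of quiescence, glycolysis, mitochondrially encoded and ribosomal protein genes had 0 members past 4-fold, with medians of -0.42, 0.23, -0.23 and 0.16, and of 0.85, 0.10, 0.31 and 0.07 before stimulation. Without the IL-13 index pre-stimulation replicate 1 those of the glycolysis and ribosomal protein genes turned to -0.06 and -0.22. The first 2 silent medians changed sign on leaving out 1 cell, to 0.19 without the IL-13 index replicate 10 and to -0.06 without the IL-5 index replicate 4. Of the ribosomal protein genes 60 of 76 lay above 0, beside 1601 of 3247 among all measured genes. With all cells the 4 measured nuclear non-coding RNAs lay below 0 with a median of -1.15, and among them Malat1 stood at 3993 and 8579.7 CPM (-1.10, -1.14 to -1.07) and Xist at 949 and 2183 CPM (-1.20, -1.27 to -1.14). Without the IL-13 index replicate 10 a member of this list, Neat1, turned from -0.36 to 0.68. Before stimulation the median of these 4 was 0.23. Of 10 chemokine genes 1 was measured, Ccl1, at 0.55, which was -0.15 without the IL-5 index replicate 5.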

How the data were processed

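Silent, pre-stimulation and activated cells of both indexes were used. The deposited files give, for each cell, unscaled counts of reads by gene. The authors made them, per the labels and the study's methods, from SMART-Seq v4 3' DE libraries by aligning reads to GRCm38 (mm10) with TopHat2 and counting with HTSeq. Versions, strand and annotation release are not given in the sources used here. In silent cells 63.5% of tallied alignments were in genes and 27.4% were not unique. The 5 summary entries of each file were left out, and 46078 gene identifiers remained, 45229 of which had a symbol in the reference annotation.

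Counts were added up within a group and expressed as CPM. Cells under 10000 gene reads (3 in the series) were left out. The log2 ratio set a group under 3 reads to 3 reads and, where stated, carried a 95% Clopper-Pearson interval. CPM carried exact Poisson intervals. Both cover counting error only, and at these depths 3 reads correspond to 0.979 CPM in IL-5 index and 1.13 CPM in IL-13 index silent cells. A gene was measured when the higher group reached 50 CPM and more than 4 cells held a read, and 4-fold was the limit of a call. No test was made. The script was tested on simulated data.

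Named were the leading 12 genes of a direction that passed 4-fold, held in all 4 date pairings past 2-fold, had a read in 70% of cells of the higher group, and had the largest ratio on leaving out any 1 cell, then Il5, Il13 and up to 4 members of a list. Predicted genes were not named. Thy1, Cd3g and the other markers came from marker lists. The ILC3 marker list is not reported here. Members and lists were chosen with earlier results of these data known. Alternatives were edgeR and DESeq2 scaling factors, the mean of the cells' CPM, other minimums of level, cells and depth, single dates, 2-fold, log2(CPM + 1) with a pseudocount of 1, and leaving out each cell, including each pre-stimulation cell. Python 3.11.15 and R 4.3.3 with edgeR 4.0.16 and DESeq2 1.42.0 were used.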

Additional observations from a re-analysis of the deposited data

Results flagged for a closer look

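In groups of 4 to 10 cells, the highest cell stood far from the others, by Dixon's 95% limit on the gap to the nearest cell, in 6 of 26 groups of values examined. Chance flags about 1 in 20 such groups, and levels over single cells are skewed. Among IL-5 index silent cells these were Il5 at 6576 CPM and Il13 at 5162 CPM, both in replicate 6, Ebi3 at 1677 CPM and Pim1 at 378 CPM, both in replicate 3, and Map3k8 at 762 CPM in replicate 1. Among IL-13 index pre-stimulation cells it was Lgals1, at 7078 CPM in replicate 1. The gene totals of the cells and the genes detected at equal depth gave none. The 11 IL-13 index silent cells were too many for this limit and were not examined, so flags cannot be compared between the indexes.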

How the results depend on the processing

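No paired analysis was possible because replicate numbers were given in accession order only and no test was made. Il13 kept its direction under every alternative run, with log2 ratios of 4.74 and 9.12 in the first and the second dates alone and 6.40 to 9.00 on leaving out any 1 cell. Il5 had 2.09 by the mean of the cells' own CPM, -0.24 and 1.93 in the first and the second dates, and -0.87 to 1.99 on leaving out 1 cell. With edgeR's and DESeq2's factors all 39 named genes past 4-fold kept their direction, as they did by the mean of the cells' CPM, on the log2(CPM + 1) scale, without a depth minimum and in the second dates alone. In the first dates 37 did, and Tnip1 and Rrad were reversed at 0.76 and -0.78. On leaving out 1 cell, 10 of the 39 fell under 4-fold, and Tnip1 ran from -5.98 to 0.069 and Irf3 from -3.01 to 0.11, both reversed without the IL-13 index replicate 6. On leaving out 1 pre-stimulation cell, added after the data were seen, the pre-stimulation ratios of Parl, Pdia4 and Kcnq1ot1 ran from -2.15 to 5.45, -0.16 to 4.46 and -5.25 to 0.62. Factors moved the silent ratios by 0.04 and the pre-stimulation ratios by -0.14 (edgeR) and -0.16 (DESeq2).

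Genes higher in the IL-5 and in the IL-13 index, 265 and 334, numbered 39 and 52 at a minimum of 200 CPM, 423 and 657 without a minimum number of cells, 175 and 124 in the first dates, 127 and 176 in the second dates, and 647 and 790 at 2-fold. At 10 reads to hold a gene they numbered 179 and 184. They ran from 252 to 302 and from 253 to 352 on leaving out 1 cell. The split between the directions thus turned in the first dates, as it did without the IL-13 index replicate 6 (293 and 253) and between the second IL-5 index and the first IL-13 index date (131 and 103). Genes past 4-fold that were within 2-fold before stimulation, 136, numbered 28 at 200 CPM and 406 at 2-fold, and 112 to 153 on leaving out 1 cell. The correlation with the pre-stimulation ratio, -0.038, was -0.083 at 200 CPM and 0.0042 with the second silent dates, and -0.053 to -0.015 on leaving out 1 cell. Genes holding over dates, 132 and 146, numbered 25 and 24 at 200 CPM, 84 and 81 at 10 reads, and 196 and 230 without a minimum number of cells, with 114 to 155 and 120 to 171 on leaving out 1 cell. Those also in 70% of cells, 45 and 9, numbered 19 and 6 at 200 CPM, 68 and 23 at 2-fold, and 21 and 3 at 10 reads, with 29 to 56 and 8 to 21 on leaving out 1 cell. The 3 reads at which a group with fewer was set correspond to 0.979 CPM (IL-5 index) and 1.13 CPM (IL-13 index), and the exact Poisson interval of 0 reads reaches 1.39 CPM in the IL-13 index.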
